A study of Mus musculus with 4 samples.

Results

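The Egr, Nr4a and Ier genes and Zfp36 belong to the immediate early genes, which cells transcribe within minutes of a stimulus. The group studied here held 10 genes, Egr1, Egr2, Egr3, Nr4a1, Nr4a2, Nr4a3, Ier2, Ier3, Ier5 and Zfp36, chosen by symbol from the 55487 genes in the deposited tables of counts and of TPM, a length-corrected abundance. All 10 were found and all 10 passed the filter on low counts. RNA was sequenced from freshly isolated mouse satellite cells, the resident stem cells of skeletal muscle, in 2 Control and 2 Rbfox2 conditional knockout (cKO) libraries. Rbfox2 encodes a splicing regulator. The cKO mice carry floxed Rbfox2, a Pax7CreERT2 driver, whose recombinase acts in satellite cells after tamoxifen, and a Rosa26 EYFP reporter of recombined cells. The labels give the Control genotype as Control only, so whether Control mice carry the driver, the reporter or tamoxifen is not given in the sources used here, nor are age, sex, number of animals or pooling.

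Immediate early genes are held ready for induction: growth factor signals reach them through ERK and the serum response factor SRF, and cAMP and calcium signals through CREB. Many of their products are transcription factors that drive a second wave of genes, and their transcripts decay quickly. In muscle, tissue dissection and enzymatic digestion during cell isolation are themselves known stimuli, so a freshly isolated satellite cell is not a cell in its resting niche. Without a sample fixed before isolation, the level before isolation and the response to isolation cannot be told apart in these libraries.

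The promoters are shown because CREB and SRF motifs were spread unevenly among the genes. RefSeq start sites on GRCm38.p6 were at hand for 7 of the 10 genes (Egr2, Nr4a1, Nr4a2, Nr4a3, Ier3, Ier5 and Zfp36), with 5 start sites for Egr2. The window searched ran from 250 bases before to 50 bases after the start. TGACG, the core of the cAMP response element that CREB recognises and which reads CGTCA on the other strand, was in the window of 4 of the 7 genes, Egr2 and all 3 Nr4a genes, against 23.0% of all 27025 genes with a promoter. Each of the 3 Nr4a genes held 4 copies, a number reached by 69 genes, or 0.26% of all. These windows are rich in G and C, at 64.7% to 81.7% for the 3 Nr4a genes against a median of 53.3%, and the part of base composition in these counts was not tested. The full palindrome TGACGTCA, which contains TGACG on both strands, was in none of the 7 (2.0% of all genes). The CArG box, the site of SRF, was in Egr2 and Zfp36 (1.8% of all genes). GCGNGGGCG, the motif of the Egr proteins themselves, was in Nr4a1, Nr4a2 and Zfp36 (6.3%). TGAGTCA, the AP-1 motif, was in none (5.9%), and GGGCGG, the GC box, was in all 7 (38.2%). All motifs were searched on both strands, and a match is a description of letters.

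The 250 bases before the start are printed 5′ to 3′ for the 5 genes that held TGACG, a CArG box or both, with TGACG or CGTCA, the CArG box and the Egr motif in capitals. The regions are chr15:101266596-101266845 (plus strand) for Nr4a1, chr2:57124004-57124253 (minus strand) for Nr4a2, chr4:48045055-48045304 (plus strand) for Nr4a3, chr10:67537619-67537868 (plus strand) for Egr2 and chr7:28379229-28379478 (minus strand) for Zfp36. For Egr2, 1 of its 5 start sites is shown, and its CArG box lies between 2 TGACG matches. The starts are those of RefSeq, and the gene coordinates given further below come from GENCODE. The printed bases of Nr4a1, Egr2 and Zfp36 lie inside those gene spans, and those of Nr4a3 partly inside.
Nr4a1: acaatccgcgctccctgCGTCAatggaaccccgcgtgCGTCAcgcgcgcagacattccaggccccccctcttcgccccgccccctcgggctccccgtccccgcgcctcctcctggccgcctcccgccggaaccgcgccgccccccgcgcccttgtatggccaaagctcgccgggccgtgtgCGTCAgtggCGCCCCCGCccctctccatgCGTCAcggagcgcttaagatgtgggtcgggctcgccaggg
Nr4a2: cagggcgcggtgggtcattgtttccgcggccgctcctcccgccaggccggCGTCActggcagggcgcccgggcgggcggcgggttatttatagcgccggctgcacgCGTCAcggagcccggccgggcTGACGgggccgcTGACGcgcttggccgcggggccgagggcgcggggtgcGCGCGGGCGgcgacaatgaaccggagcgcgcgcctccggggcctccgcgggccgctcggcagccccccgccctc
Nr4a3: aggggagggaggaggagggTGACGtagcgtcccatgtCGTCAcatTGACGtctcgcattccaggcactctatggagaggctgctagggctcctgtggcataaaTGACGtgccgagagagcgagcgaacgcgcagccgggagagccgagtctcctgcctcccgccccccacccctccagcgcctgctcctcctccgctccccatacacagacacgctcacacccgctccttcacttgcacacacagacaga
Egr2: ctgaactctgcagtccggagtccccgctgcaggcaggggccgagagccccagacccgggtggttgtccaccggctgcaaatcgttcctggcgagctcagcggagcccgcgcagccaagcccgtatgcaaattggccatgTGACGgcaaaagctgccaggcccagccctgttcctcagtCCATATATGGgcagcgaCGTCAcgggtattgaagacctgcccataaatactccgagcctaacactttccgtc
Zfp36: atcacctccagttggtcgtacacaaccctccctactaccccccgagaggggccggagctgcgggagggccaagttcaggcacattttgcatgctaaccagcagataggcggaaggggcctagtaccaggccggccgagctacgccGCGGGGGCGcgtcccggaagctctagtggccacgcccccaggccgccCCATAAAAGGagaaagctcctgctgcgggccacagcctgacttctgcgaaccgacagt

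In gene structure the group was compact. The median gene span was 5287 bp, against 17318 bp over 22028 protein-coding genes of GENCODE M21, and 7 of 10 spanned less than 10000 bp (70.0%, against 35.7%). Ier2 and Ier5 have 1 exon, and the 3 Nr4a genes, of which Nr4a3 is the longest at 41295 bp, each have a transcript with 8.

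The 4 libraries held between 68884091 and 101997422 estimated counts. cKO 1 was the smallest and had more low-level signal, with a median of 0.771 TPM over all genes against 0.312 to 0.437 TPM in the other 3 libraries. Normalised counts, scaled by TMM-adjusted library totals, are given as CPM. The targeted gene Rbfox2 measured 131.3 CPM in Control 1, 55.98 in Control 2, 40.04 in cKO 1 and 15.17 in cKO 2. Its log2 fold change was -1.76, with an SE of 0.35 and an adjusted p of 0.000252 in edgeR. A total over the gene can include reads from exons outside the deletion. Satellite cell markers were present, 12 of 12 in all 4 libraries, with a summed level of 14579 and 15531 TPM in Control against 14328 and 15604 TPM in cKO. Single markers were less even, with 3 of 12 higher and 3 lower in both cKO libraries by CPM, and 0 called. Over all genes tested, 18% were higher and 13.3% lower in both cKO libraries by CPM. Among genes with a mean of at least 10 CPM, 13.3% were higher and 24.7% lower. Pax7, which defines satellite cells, measured 26.5 CPM in Control 1, 22.7 in Control 2, 38.9 in cKO 1 and 49.3 in cKO 2, a difference of 0.84 on the log2 scale (SE 0.33, edgeR adjusted p = 0.556).

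The levels of the 10 genes spread over more than 2 orders of magnitude. TPM is corrected for transcript length, so levels of different genes can be set side by side. Together the 10 genes held 2263 and 2896 TPM in Control 1 and 2 against 3467 and 2849 TPM in cKO 1 and 2. By their mean over the 4 libraries the order was Egr1, Ier2, Ier3, Nr4a1, Zfp36, Egr2, Nr4a2, Ier5, Egr3 and Nr4a3. The ranges of neighbours overlapped for Ier3 with Nr4a1, Nr4a1 with Zfp36 and Egr3 with Nr4a3, and did not for the other 6 neighbouring pairs. For 6 of the 10, Egr1 to Egr2 in this order, the percentile among 21903 protein-coding genes averaged over 90. Nr4a3 had the lowest mean, between percentiles 62.47 and 70.64, which rested on its Control 1 value of 4.41 TPM. Egr3 lay below it in Control 2 and in both cKO libraries.

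**Figure D1:**
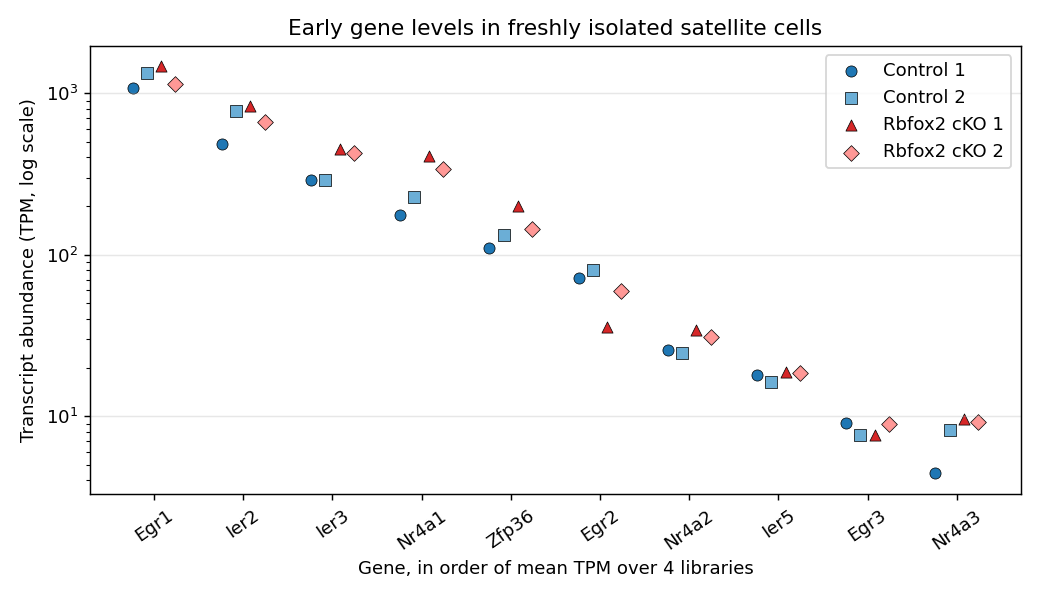
Transcript abundance (TPM, log scale) of the 10 early genes in Control 1 and 2 and Rbfox2 cKO 1 and 2, 1 point per library, ordered by the mean over 4 libraries. Egr1 lies between 1076 and 1466 TPM, and Egr3 and Nr4a3 lie below 10 TPM in each library.

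Egr1, Egr2 and Egr3 encode zinc finger transcription factors that bind the same GC-rich motif. Egr1 (ENSMUSG00000038418.7; GRCm38 chromosome 18, 34859823 to 34864984, plus strand) stood at 1076 and 1335 TPM in Control 1 and 2 against 1466 and 1144 TPM in cKO 1 and 2. It ranked between 74 and 107 among protein-coding genes, and the groups overlapped. Egr2 (ENSMUSG00000037868.15; chromosome 10, 67535475 to 67542188, plus strand), known for its part in myelination, stood at 71.4 and 79.97 TPM in Control against 35.8 and 59.4 TPM in cKO. Both cKO libraries lay below both Control libraries, with cKO 1 the lower. Egr3 (ENSMUSG00000033730.4; chromosome 14, 70077203 to 70082614, plus strand), needed for muscle spindles, stood at 9.10 and 7.59 TPM in Control against 7.64 and 8.92 TPM in cKO, with overlap. Egr1 made up 93.0% to 97.1% of the TPM of the 3 Egr genes in each library.

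Nr4a1, Nr4a2 and Nr4a3 encode orphan nuclear receptors, regulated mainly through how much of them is made. Nr4a1 (ENSMUSG00000023034.7; chromosome 15, 101254269 to 101274795, plus strand), also called Nur77 and linked to glucose use in muscle, stood at 174.8 and 226.2 TPM in Control 1 and 2 against 405.8 and 341.0 TPM in cKO 1 and 2. The groups did not overlap. Nr4a2 (ENSMUSG00000026826.13; chromosome 2, 57106830 to 57124003, minus strand), best known from dopaminergic neurons, stood at 25.9 and 24.5 TPM in Control against 33.9 and 31.0 TPM in cKO, again without overlap. Nr4a3 (ENSMUSG00000028341.9; chromosome 4, 48045153 to 48086447, plus strand) stood at 4.41 and 8.15 TPM in Control against 9.65 and 9.18 TPM in cKO, with Control 1 well below the other 3 libraries. Nr4a1 made up 85.2% to 90.3% of the TPM of the 3 Nr4a genes.

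Ier2, Ier3 and Ier5 share a name for rapid induction rather than 1 family. Ier2 (ENSMUSG00000053560.5; chromosome 8, 84661331 to 84662852, minus strand) stood at 483.5 and 775.5 TPM in Control against 835.5 and 665.4 TPM in cKO, and its Control 1 value was the lowest of the 4. Ier3 (ENSMUSG00000003541.6; chromosome 17, 35821684 to 35822923, plus strand), a regulator of survival under stress, stood at 289.9 and 290.1 TPM in Control against 453.3 and 426.2 TPM in cKO, without overlap. Ier5 (ENSMUSG00000056708.5; chromosome 1, 155096361 to 155099636, minus strand), which activates the heat shock factor HSF1, had the narrowest range of the 10 in TPM, at 17.9 and 16.2 TPM in Control against 18.7 and 18.6 TPM in cKO. Its highest value was 1.16 times its lowest, against 2.32 times for Nr4a1. In CPM, where it ran from 27.0 to 39.1, Egr1 had a narrower range in proportion, from 2874 to 3517. Zfp36 (ENSMUSG00000044786.6; chromosome 7, 28376784 to 28380253, minus strand) encodes tristetraprolin, which binds AU-rich elements and hastens decay of transcripts, Myod1 in quiescent satellite cells among them. It stood at 110.1 and 132.6 TPM in Control against 200.3 and 145.0 TPM in cKO, without overlap. Gm44710, an antisense gene that overlaps Zfp36, stood at 2.83 to 4.26 TPM; whether the counting used strand is not given in the sources used here, so exchange of reads between the pair cannot be told apart.

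In TPM both cKO values exceeded both Control values for 6 of the 10 genes (Nr4a1, Nr4a2, Nr4a3, Ier3, Ier5 and Zfp36), against 32.0% of the 17210 genes with a mean of at least 1 TPM, and were lower for 1 (Egr2), against 15.7%. With 2 libraries against 2, an exact permutation test of a single value cannot give a two-sided p below 0.333. Fewer cells of a type and less RNA per cell cannot be told apart in such bulk samples.

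Dividing by Egr1 within a library removes library-wide scaling, and sets the genes against each other. Nr4a1 was 16.3% and 16.9% of the Egr1 TPM in Control 1 and 2 against 27.7% and 29.8% in cKO 1 and 2. Ier3 was 26.96% and 21.7% in Control against 30.9% and 37.2% in cKO. Zfp36 was 10.2% and 9.93% in Control against 13.7% and 12.7% in cKO. For these 3 genes and Nr4a3 both cKO ratios exceeded both Control ratios, as did those of 21.7% of the 17209 other genes with a mean of at least 1 TPM. Egr2 went the other way, at 6.64% and 5.99% in Control against 2.44% and 5.19% in cKO, an arrangement found for 14.1% of genes. The ratios of Egr3, Nr4a2, Ier2 and Ier5 overlapped, and Ier2 was 57.0% to 58.1% of Egr1 in all libraries but Control 1 (44.95%). A ratio shows unequal change and not which of its genes changed.

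**Figure D2:**
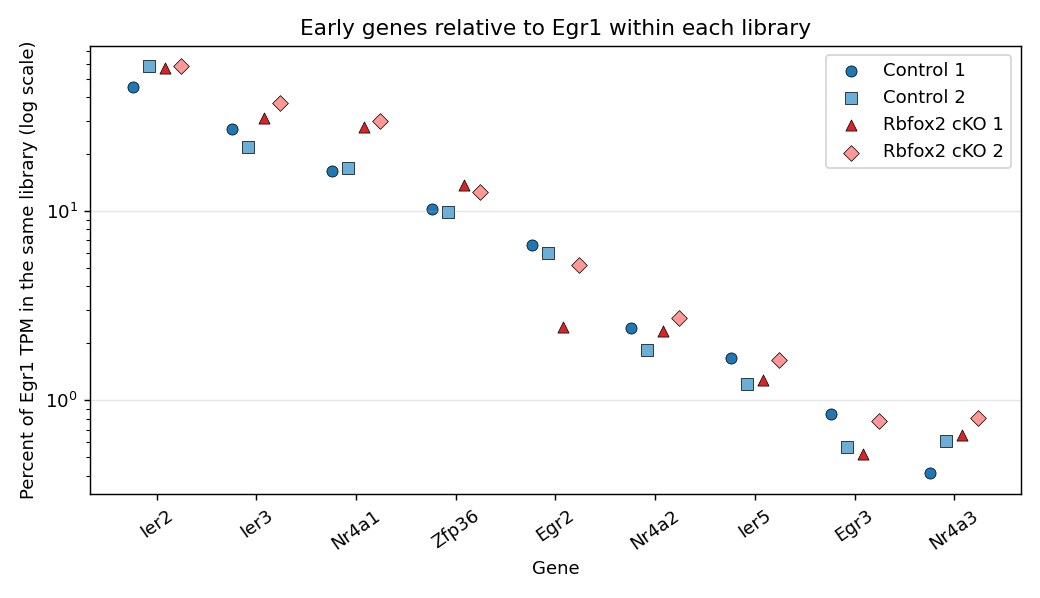
TPM of each other early gene as a percent of the Egr1 TPM in the same library (log scale), 1 point per library. Nr4a1 lies at 16.3% and 16.9% in the Control libraries and at 27.7% and 29.8% in the cKO libraries, and Egr2 is lowest in cKO 1 at 2.44%.

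Counts were then compared between genotypes, which is the test the design allows. Of the 10 genes 0 rose and 0 fell in cKO at an adjusted p under 0.05 by the quasi-likelihood test of edgeR, where 0.551% of the 38143 genes tested were called (0.364% higher, 0.186% lower). DESeq2 also called 0 of the 10. At an unadjusted p under 0.05 there were 2, Nr4a1 and Egr2, against 4.83% of all genes tested. The log2 fold change was positive for 6 and negative for 4, with a median of 0.11 against 0.06 over all genes tested and -0.11 over the 7840 tested genes with a mean of at least 10 CPM.

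Nr4a1 had the largest positive difference, at 250.4 and 321.0 CPM in Control 1 and 2 against 436.9 and 528.1 CPM in cKO 1 and 2. Its log2 fold change was 0.76 (SE 0.37, 95% interval 0.03 to 1.48, adjusted p = 0.967 in edgeR), and the groups did not overlap. Egr2 had the largest negative difference, at 121.1 and 131.4 CPM in Control, with 44.9 and 108.1 CPM for cKO. Its log2 fold change was -0.72 (SE 0.35, 95% interval -1.40 to -0.04, adjusted p = 0.942 in edgeR), and it was lower in both cKO libraries but mostly in cKO 1. Without cKO 1 it was -0.21, and without cKO 2 it was -1.56 (adjusted p = 0.000731 in edgeR, where 5.39% of all genes were called). A fit without 1 cKO library takes the spread within cKO from Control.

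Nr4a3 stood at 12.5 and 14.6 CPM in Control, with 14.9 and 24.8 CPM for cKO (log2 fold change 0.55, SE 0.32, 95% interval -0.08 to 1.18). Ier3 stood at 195.4 and 192.8 CPM in Control, with 225.8 and 309.1 CPM for cKO (0.46, SE 0.36, interval -0.24 to 1.17), and Zfp36 at 181.0 and 214.5 CPM in Control, with 243.4 and 256.3 CPM for cKO (0.34, SE 0.36, interval -0.36 to 1.04). These 3 genes and Nr4a1 were the 4 of 10 whose cKO values all exceeded the Control values in CPM, against 18% of all genes tested, and Egr2 was the 1 below, against 13.3%. Among genes with a mean of at least 10 CPM, those shares were 13.3% above and 24.7% below. The difference of Nr4a3 was 0.07 without cKO 2 and 0.88 without cKO 1. That of Ier3 was 0.15 without cKO 2 and 0.68 without cKO 1. Without cKO 1, Nr4a1 (0.90, adjusted p = 0.00104), Ier3 (adjusted p = 0.00758) and Nr4a3 (adjusted p = 0.0195) passed the threshold in edgeR, in a fit that called 2.26% of all genes.

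The other 5 genes overlapped between the groups. The log2 fold change was -0.05 (95% interval -0.84 to 0.75) for Egr1, -0.08 (-0.71 to 0.54) for Egr3, 0.12 (-0.53 to 0.77) for Nr4a2, 0.10 (-0.64 to 0.83) for Ier2 and 0.00 (-0.64 to 0.64) for Ier5. The upper bounds correspond to folds of 1.46 to 1.78 and the lower bounds to folds of 0.558 to 0.692. The signs of all 5 turned with 1 library or another left out, and those of Egr1 and Ier5 also turned with library totals as the only scaling, at 0.11 and 0.12. With that scaling 8 of the 10 genes were positive, and that scaling raised the median of all genes by 0.19. Under it Nr4a1 (0.90, adjusted p = 0.00892) and Ier3 (0.59, adjusted p = 0.0332) passed the threshold in edgeR, and 0.739% of all genes did. In limma on log2(TPM + 1) without a filter the same 2 genes passed, against 0.742% of all genes. The settings with 0 of the 10 called had a background of 0.312% (DESeq2 size factors), 0.0514% (no filter on low counts), 0.14% (CPM of at least 5 in 2 libraries), 0.252% (replicate block) and 0.275% (DESeq2). The background was 0.308% and 0.593% in limma on log2(TPM + 1) and on log2(TPM + 0.1), 0.637% with a crossed block, and 0.121% and 0.135% without Control 1 and without Control 2, again with 0 of the 10 called.

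**Figure D3:**
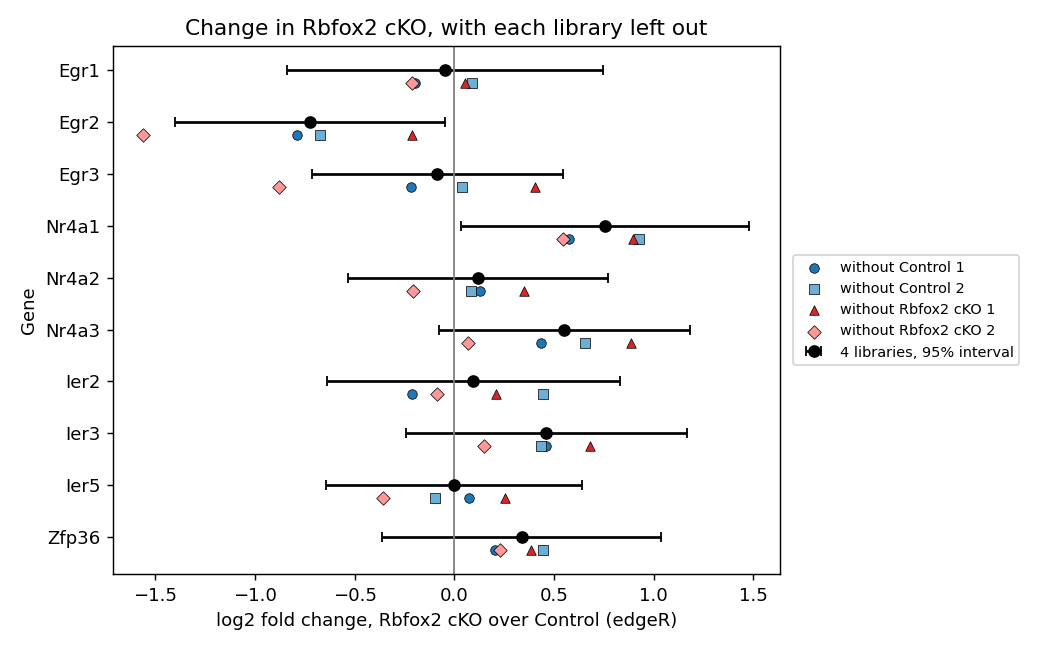
log2 fold change of each early gene in Rbfox2 cKO over Control from edgeR with 4 libraries (black points, bars are 95% intervals) and with each library left out (coloured points). Nr4a1 stays between 0.54 and 0.93, and Egr2 ranges from -1.56 without cKO 2 to -0.21 without cKO 1.

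The genes also differed in how far the libraries of 1 genotype stood apart. In CPM all 10 were higher in cKO 2 than in cKO 1, while in TPM 8 of 10 were higher in cKO 1, so that order depends on the scaling. It was therefore read beside genes of like abundance (a mean CPM within a factor of 2), whose median log2 ratio of cKO 2 to cKO 1 ran from 0.42 to 0.65. Zfp36 (0.07), Egr1 (0.18), Ier2 (0.21) and Nr4a1 (0.27) lay below the median of their like genes. Egr2 (1.27), Egr3 (1.20) and Nr4a3 (0.73) lay above it, and Nr4a2 (0.48), Ier3 (0.45) and Ier5 (0.53) lay near it. Between Control 2 and Control 1 the medians of the like genes ran from -0.09 to -0.04, and Ier2 had the largest ratio of the 10, at 0.66. The median absolute log2 ratio of its like genes was 0.129, and how many of them reached 0.66 was not counted.

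**Figure D4:**
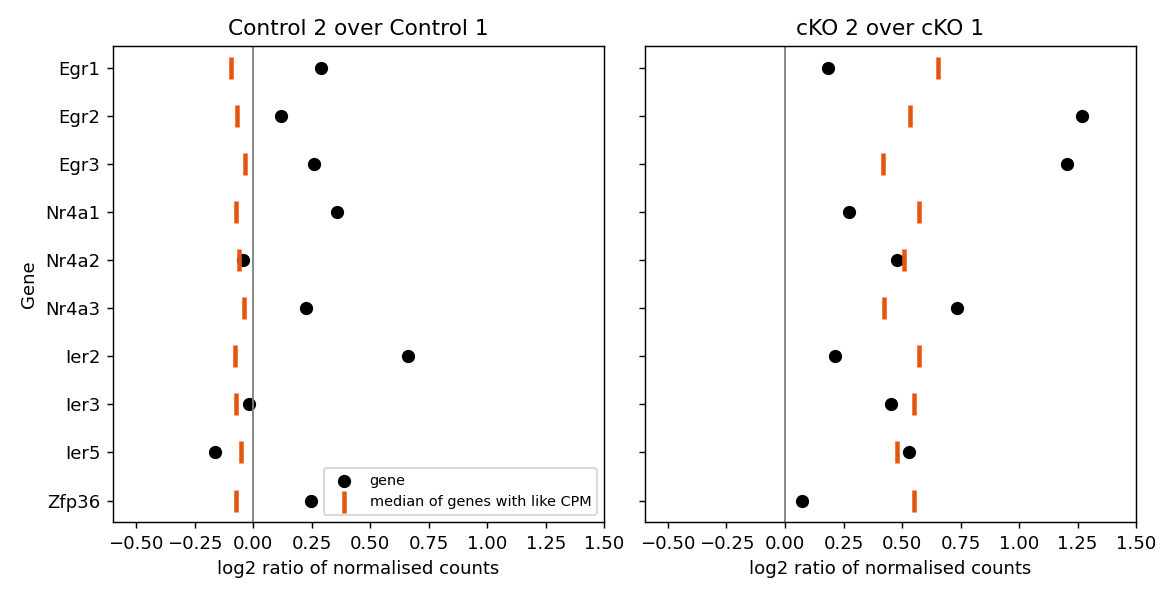
log2 ratio of normalised counts between the libraries of 1 genotype for each early gene (black points), Control 2 over Control 1 at left and cKO 2 over cKO 1 at right, with the median of genes of like CPM (orange bars). Egr2 and Egr3 lie at 1.27 and 1.20 between the cKO libraries, and Ier2 lies at 0.66 between the Control libraries.

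CPM and TPM also differ in how they treat transcript length. The deposited count divided by the TPM is proportional to the mean transcript length that a library's estimate used. That quotient was scaled to bp in each library on genes with a single annotated transcript. The length was the same in all 4 libraries to within 2% for Egr1, Egr2, Nr4a1, Ier2, Ier3, Ier5 and Zfp36. For Egr3 it was 2662 and 3875 bp in Control 1 and 2, with 2691 and 3649 bp in cKO 1 and 2, shorter in the libraries numbered 1 of both genotypes, whose library codes share the part L01. For Nr4a3 it was 4741 and 3043 bp in Control, with 3505 and 4209 bp in cKO, with no split by genotype. Nr4a2 ran from 2838 to 3200 bp. The TPM of Egr3 differed between cKO 2 and cKO 1 far less than its count did, at 8.92 and 7.64 TPM against 20.9 and 9.06 CPM. For Nr4a3 the longest estimate was that of Control 1. Its TPM there was 4.41, against 8.15 in Control 2, while its counts were closer, at 12.5 and 14.6 CPM.

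Markers of other cells were read beside these values. The 8 macrophage and monocyte markers, all detected in every library, summed to 43.4 and 49.8 TPM in Control against 60.9 and 77.6 TPM in cKO, and the 8 fibro-adipogenic markers to 1268 and 1414 TPM in Control against 1517 and 1668 TPM in cKO. The 8 endothelial markers summed to 128.4 and 143.0 TPM and to 146.9 and 179.8 TPM, and the 7 erythroid markers to 337.3 and 763.5 TPM and to 1471 and 1800 TPM. Of the 7 erythroid genes 5 rose in edgeR, and of each of the other 3 lists 0 did. These sums, given from the lower to the higher library of each genotype, did not overlap between genotypes either. Of all genes with a mean of at least 1 TPM, 32.0% were higher in both cKO libraries in TPM. The highest genes of the 4 lists were Cd14, Gsn, Cldn5 and Hba-a1, in the order given. None of these markers was at 0 in a library, and their part in the Nr4a1, Ier3 and Zfp36 values was not tested. The sums of neutrophil markers (7.48 to 23.3 TPM over 4 libraries) and T and B cell markers (3.67 to 8.26 TPM) overlapped. So did those of smooth muscle and pericyte markers (180.1 to 218.8 TPM) and mature fibre markers (47.3 to 77.8 TPM). By CPM, 6 of the 9 mature fibre markers were lower in both cKO libraries and 0 were higher. The share lower was 13.3% of all genes tested and 24.7% of those with a mean of at least 10 CPM. The median log2 fold change of these 9 markers was -0.46, with 0 called. Glial markers stood at 32.0 and 32.1 TPM in Control against 39.0 and 44.1 TPM in cKO.

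Among close relatives, Egr4, the remaining Egr gene, was near the detection limit at 0.07 to 0.29 TPM. Nab1 (16.97 to 20.1 TPM) and Nab2 (5.72 to 8.60 TPM), corepressors that bind Egr proteins, were present in all 4 libraries. Zfp36l1, a paralogue of Zfp36 with the same RNA-binding zinc fingers, stood at 127.5 and 174.8 TPM in Control against 327.9 and 243.9 TPM in cKO. Its log2 fold change was 0.75 (SE 0.37, adjusted p = 0.972 in edgeR), and Zfp36l2 was at 0.22 (SE 0.35). Of 10 relatives and corepressors, the retinoid X receptors that pair with Nr4a1 and Nr4a2 included, 0 rose and 0 fell, with a median of 0.16.

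Of 26 genes on the route through ERK, SRF and MEF2 0 rose and 0 fell (median 0.20). The most abundant, the kinase Map2k1, stood at -0.08. SRF itself was modest, at 5.09 and 3.04 TPM in Control against 6.40 and 5.83 TPM in cKO, and its partner Elk4 stood at 93.5 and 96.1 TPM in Control against 101.1 and 106.4 TPM in cKO, both named after their values were seen. Of 13 genes on the cAMP, calcium and CREB route 0 rose and 0 fell (median 0.11). Prkar1a, a regulatory subunit of protein kinase A, stood at -0.21 and the coactivator Crebbp at -0.26. Without cKO 2 their values were -0.65 and -0.91, and without cKO 1 they were 0.09 and 0.17. Genes of like abundance to the 10 early genes had median log2 ratios of cKO 2 to cKO 1 of 0.42 to 0.65. The part of that shift in such swings was not tested.

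Of 6 genes on the p38 route, which phosphorylates the Zfp36 protein, 1 rose. Mapk14, the p38 alpha kinase, stood at 6.83 and 5.89 CPM in Control 1 and 2 against 6.56 and 25.2 CPM in cKO 1 and 2 (log2 fold change 1.32, SE 0.33, adjusted p = 0.0159 in edgeR). Only cKO 2 was high and the groups overlapped, and the value was -0.03 without cKO 2 and 2.00 without cKO 1. Of 14 decay partners of Zfp36 0 rose and 0 fell (median -0.17), with Pabpc1 at -0.12 and Elavl1 at -0.29. Elavl1, which stabilises AU-rich transcripts, stood at -0.71 without cKO 2 and at 0.00 without cKO 1, a swing in the same direction as those of Prkar1a and Crebbp. Of 11 AU-rich targets 0 rose and 0 fell (median 0.02). Among these Myod1 stood at 2542 and 2782 CPM in Control, with 2493 and 2913 CPM for cKO (0.02, SE 0.40), and Cxcl1 at 0.11 with cKO 1 at 1550 and cKO 2 at 2858 CPM.

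Of 12 growth factor ligands and receptors that feed these routes 0 rose and 1 fell. Igf1, a growth factor made in muscle and by its resident cells, stood at 24.9 and 27.6 CPM in Control, with 8.45 and 7.02 CPM for cKO, which gave a log2 fold change of -1.76 with an SE of 0.33 (edgeR, adjusted p = 8.44e-05). Both cKO libraries were low, and the value stayed between -1.89 and -1.70 with any library left out. The call was lost without Control 1 and without Control 2, with adjusted p = 0.444 and 0.582 in edgeR. It was also lost without a count filter, with a minimum of 5 CPM in 2 libraries and in limma on log2(TPM + 1) and on log2(TPM + 0.1), and held in 7 of 13 other settings.

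Of 38 other immediate early genes 4 rose and 0 fell, with a median of -0.01. They were Cebpd (2.18) and Cebpb (1.42), C/EBP transcription factors, the kinase Plk3 (1.67) and the GTPase Rhob (1.48). Cebpd, Cebpb and Plk3 lost the call with any 1 library left out, with values from 0.88 for Cebpb without Control 1 to 2.76 for Cebpd without Control 2, and Rhob kept it only without cKO 2 and stood at 0.78 without cKO 1. Over 13 other settings Cebpd was called in 3, Plk3 in 2, Rhob in 1 and Cebpb in 0, and DESeq2 called Cebpd and Plk3 but neither Rhob nor Cebpb. Fos, the founding gene of the class, stood at 973.4 and 1068 TPM in Control against 990.4 and 958.4 TPM in cKO, and Junb at 842.3 and 1330 TPM and 1581 and 1046 TPM, both named after their values were seen. Fos lay below Egr1 in each library and the ranges of Junb and Egr1 overlapped. Whether the 10 genes differ from these 38 was not tested.

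The median profile of the 10 genes over the 4 libraries, as log2 normalised counts centred on each gene's mean, was -0.17 for Control 1, -0.06 for Control 2, -0.11 for cKO 1 and 0.27 for cKO 2. The 5 closest of 5456 protein-coding genes with a mean of at least 20 CPM were Lmf2, C1s1, Cdc42se1, Rem1 and Rasa3, with root mean square differences of 0.024 to 0.028 on the log2 scale. The 10 genes themselves had a median difference of 0.18 from that profile, and 359 genes lay within 0.1 of it.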

How the data were processed

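The authors deposited estimated counts per gene and, in a second table, TPM per gene for 4 SMART-Seq libraries. The counts are whole numbers, so none was rounded. The submitters' processing notes name StringTie 1.3.6, GRCm38 and HISAT2 2.1.0. Which annotation release, strand setting or filters were used is not stated there or in the labels. Tables were joined by gene identifier, and 55394 of 55487 identifiers matched GENCODE M21 without the version, which supplied coordinates and gene types. The file's version of Ier2 is later than in M21. Promoters came from RefSeq on GRCm38.p6.

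Counts were tested with edgeR 4.0.16 in R 4.3.3 (TMM, filterByExpr, robust quasi-likelihood, Benjamini-Hochberg over 38143 genes, threshold 0.05), with no covariate. Normalised counts are CPM on TMM-scaled totals. Each SE was obtained by dividing the log2 fold change by the root of its F statistic. Alternatives were limma 3.58.1 on log2(TPM + 1) and log2(TPM + 0.1), DESeq2 1.42.0, other scalings and filters, a replicate block and each library left out. Scripts were tested on simulated counts. Nothing in the labels states that each library is a different animal, so the p-values cover the spread among these 4 libraries alone, which may be technical. The genes and lists were chosen with earlier results of these data known. From each list the called genes (up to 4), or otherwise the 2 with the highest CPM, are named, with the 5 protein-coding genes closest to the median profile of the 10, and others were named after their values were seen. A gene that this rule names is not reported here. The common biological coefficient of variation was 0.373, a value fitted over all 38143 genes tested and not the spread of the 10 genes. Their SEs ran from 0.32 to 0.41. The parts of spread and of depth in this precision were not tested.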

Additional observations from a re-analysis of the deposited data

How the results depend on the processing

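Of the 10 early genes 0 were called in edgeR with DESeq2 size factors, without any count filter, with a minimum of 5 CPM in 2 libraries and with the replicate block, in DESeq2, and in limma on log2(TPM + 1) and on log2(TPM + 0.1). The adjusted p-values under these settings ranged widely. For Nr4a1 and Ier3 they were 0.123 and 0.118 in edgeR with that minimum. In limma on log2(TPM + 1) they were 0.0653 and 0.0700. In edgeR with DESeq2 size factors both were 0.99989. With library totals only 2 were called, as with limma on log2(TPM + 1) and no filter, Nr4a1 (0.90 in both) and Ier3 (0.59 and 0.60), and with single libraries left out between 0 and 3. Nr4a1, Nr4a3, Ier3 and Zfp36 stayed positive and Egr2 negative under each of 13 other settings. These are the genes whose groups did not overlap in CPM, so leaving out a library could hardly turn their sign. All settings also reuse the same libraries, so the kept signs are not separate evidence. Egr1 turned positive, at 0.11 with library totals only, 0.07 with that minimum and 0.11 in the 3 limma fits, and so did Ier5, at 0.124, 0.091 and, in limma, 0.125, 0.131 and 0.125. With single libraries left out the ranges were -0.212 to 0.087 for Egr1, -0.36 to 0.25 for Ier5, -0.88 to 0.41 for Egr3, -0.21 to 0.45 for Ier2 and -0.21 to 0.35 for Nr4a2. The cause was not tested.

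Over all genes, 210 were called in the fit reported, 119 with DESeq2 size factors, 28 without a count filter, 14 with the minimum of 5 CPM, 86 in DESeq2, 53, 102 and 404 in limma on log2(TPM + 1), on log2(TPM + 0.1) and without a filter, and 51 to 2267 with a library left out. With the replicate block 96 genes were called. The libraries numbered 1 share L01 in their library code and those numbered 2 share L02. The labels do not say what this part marks or that it pairs libraries. The last part of the code runs with genotype, and what it marks is not given either. Deviations of Control 1 and cKO 1 from their group means correlated at -0.18 over 10579 genes. With the numbers crossed, an alternative chosen after seeing the data, 243 genes and 0 of the 10 were called.

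Of the gene lists, the p38 route had 0 called in each of those settings that kept all 4 libraries, and 0 to 1 with a library left out. Growth factor ligands and receptors had 2 with library totals only and in limma without a filter, 0 with either other count filter and in limma with its filter, and 0 to 3 with a library left out. Other immediate early genes had 1 with DESeq2 size factors, with library totals and in limma on log2(TPM + 0.1), 2 with the replicate block, in DESeq2 and in limma without a filter, 0 with either other count filter and in limma on log2(TPM + 1), and 0 to 9 with a library left out. Relatives and the CREB route had 1 each in limma without a filter. With a library left out, relatives had 0 to 1, the CREB route 0 to 3, the ERK route 0 to 2, decay partners 0 to 6 and AU-rich targets 0 to 1.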
